A study of Mus musculus with 8 samples.

Results

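The aminoacyl-tRNA synthetases examined here were 36 genes chosen by name from the 53465 genes of the count table. By their names, 20 were grouped as cytosolic and 16, with names ending in 2, as mitochondrial. A gene whose product acts in both compartments was thus counted as cytosolic. Dars, Gars, Kars and Qars had no counterpart among the 16. Expression was measured by RNA-seq in MSCs, mesenchymal stem cells able to give rise to bone, fat and cartilage, from the leg bones of male C57BL/6N mice aged 3 to 5 months. There were 4 samples kept at 2% oxygen (hypoxia) and 4 moved to 21% oxygen (normoxia), with no other treatment. Per the study's methods all cells were grown at 2% oxygen until the sort, and the move to 21% came after it. Both groups carry the replicate numbers 1 to 4. Per the labels the cells were purified by sorting on day 12 of culture, and the study's gate was negative for the blood markers CD45 and TER-119 and positive for CD140a and Sca-1. Total counts were 12898291 to 25132141 per sample, hypoxia 1 being the deepest, and all 36 genes passed the filter on low counts, with 38 (Pars2) to 10945 (Aars) counts per gene and sample.

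Synthetases charge tRNAs with their amino acids, as a rule 1 amino acid per enzyme, at the cost of ATP, and so supplies the ribosome. The cytosolic enzymes serve translation of nuclear messages, and several of them sit together in the multi-tRNA synthetase complex. The mitochondrial enzymes are also encoded in the nucleus, are imported, and serve translation of the respiratory chain subunits that the mitochondrial genome encodes. Many cytosolic synthetase genes are known targets of ATF4, the transcription factor of the amino acid and stress response, which binds the C/EBP-ATF response element.

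The labelled cell type was checked by marker genes. All 10 MSC markers were detected and tested, among them Pdgfra (CD140a) and Ly6a (Sca-1). Of these 10, 3 rose (Cd44, Itgb1 and Nt5e) and Eng fell, and with the replicate number in the fit 5 were higher and 5 lower. Among the blood and endothelial markers, Cd3e, Hbb-bs, Hba-a1 and Emcn had 0 counts in every sample and Pecam1 and Cdh5 had at most 3, whereas Ptprc (CD45) and the macrophage genes Cd68, Adgre1, Csf1r and Lyz2 were present. The 13 markers listed summed to 459.6 to 905.9 CPM (counts scaled to the library size) in hypoxia and 575 to 1066 CPM in normoxia, and of the 5 that could be tested only Lyz2 rose (log2 change 0.56, adjusted p = 0.022 by limma-trend), while Cd68 and Csf1r were lower with the replicate number in the fit. The part of macrophages in the results on synthetases was not tested. In bulk RNA, fewer cells of a type and less RNA per cell cannot be told apart.

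Levels were compared between genes per length, as counts per kilobase of the longest annotated transcript scaled to the same total in every sample (TPM). Cytosolic synthetases were the more abundant: the median of their levels was 104.6 TPM, against 9.72 TPM for the mitochondrial ones. The cytosolic sum was 2551 ± 203.6 TPM (SD, n = 4) in hypoxia and 2904 ± 125.5 TPM in normoxia, and its ranges of 2384 to 2848 and 2779 to 3077 TPM overlapped. The mitochondrial sum was 231 ± 27.3 TPM and 230.3 ± 10.7 TPM, respectively. These TPM do not carry the TMM factors that the CPM and the log2 changes use. In CPM the cytosolic sum was 3173 ± 275.6 in hypoxia and 3301 ± 174 in normoxia. The mitochondrial sum was 322.9 ± 35.1 CPM in hypoxia and 295 ± 10.2 CPM in normoxia, and the groups overlapped for both sums.

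Nars, which charges asparagine tRNA, led with a median of 418 TPM over the 8 samples, and Gars (glycine) followed with 349.5 TPM. The ranges of these 2 genes overlapped, whereas the lowest Gars sample (307.2 TPM) lay above the highest Aars sample (214.5 TPM). Among cytosolic genes the lowest was Farsa, the alpha subunit of the phenylalanine enzyme, at 27.8 TPM, and its partner Farsb stood at 69.8 TPM. Lars2 (leucine) was the most abundant mitochondrial gene with 55.2 TPM, followed by Iars2 (isoleucine) with 28.8 TPM and Rars2 (arginine) with 24.4 TPM. The lowest was Mars2 (methionine) with 2.02 TPM, a gene whose longest transcript is annotated at 11294 bases, so its level per length depends on that annotation.

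**Figure D1:**
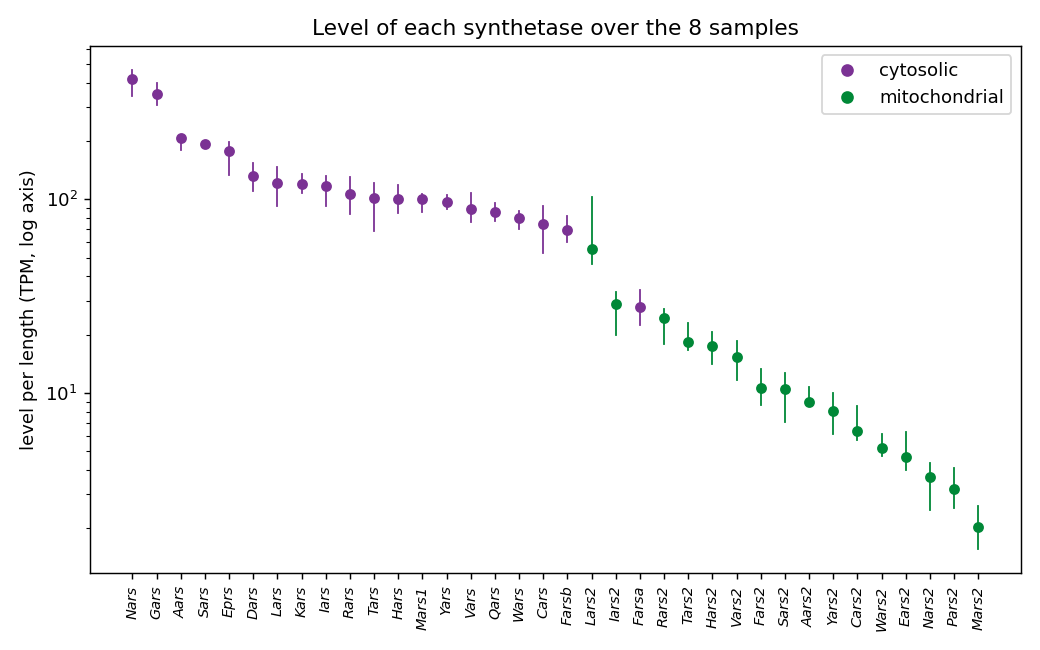
Level per length of each synthetase (TPM, log axis), ordered by its median; points are medians and lines the range over the 8 samples. The cytosolic genes (purple) fill the left of the plot except Farsa at 27.8 TPM, which lies below the mitochondrial Lars2 and Iars2 (green).

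Across 17 pairings of a cytosolic with a mitochondrial gene for the same amino acid (Eprs, which charges both glutamate and proline tRNAs, and Fars2 enter 2 pairings each), the cytosolic gene was the more abundant one in every sample, with median ratios of TPM from 2.25 to 110.1. The smallest ratio was that of Lars to Lars2, which ranged from 1.01 to 3.14 over the samples. The largest was that of Nars to Nars2, from 98.7 to 144.

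Next, levels were compared between oxygen conditions, with log2 changes given as normoxia minus hypoxia and called at an adjusted p under 0.05 (limma-trend, Benjamini-Hochberg adjustment over all 14369 genes tested). Synthetases did not move together. Normoxia was higher for 7 of the 36 genes (Tars, Cars, Rars, Lars, Dars, Iars2 and Mars2) and lower for 5 (Vars2, Lars2, Fars2, Vars and Qars). Of all genes tested, 34.6% were called, 18% higher and 16.5% lower, so the 33.3% of synthetases called lay near the background. By compartment, 5 of 20 cytosolic genes rose and 2 fell, and 2 of 16 mitochondrial genes rose and 3 fell. The median log2 change was 0.06 in each compartment, against 0.00 over all genes tested.

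The replicate numbers were taken to pair the samples, because same-numbered samples deviated together. The labels do not state such a pairing, which was drawn from the same values that the fit uses. Adding that number to the fit (the replicate block) called 12 synthetases higher and 6 lower. That was 50% of the 36, beside 46% of all genes tested (23.3% higher and 22.7% lower). The 6 genes gained were Eprs (log2 change 0.19, adjusted p = 0.013 with limma-trend and the block), Hars (0.17, 0.014), Nars (0.13, 0.023), Rars2 (0.25, 0.032) and Yars2 (0.30, 0.039), which were higher in normoxia, and Sars (-0.13, 0.029), which was lower. Without the block their adjusted p values were 0.051 to 0.18. The remaining 18 synthetases passed the threshold in neither fit, with log2 changes from -0.23 (Wars2) to 0.31 (Nars2).

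**Figure D2:**
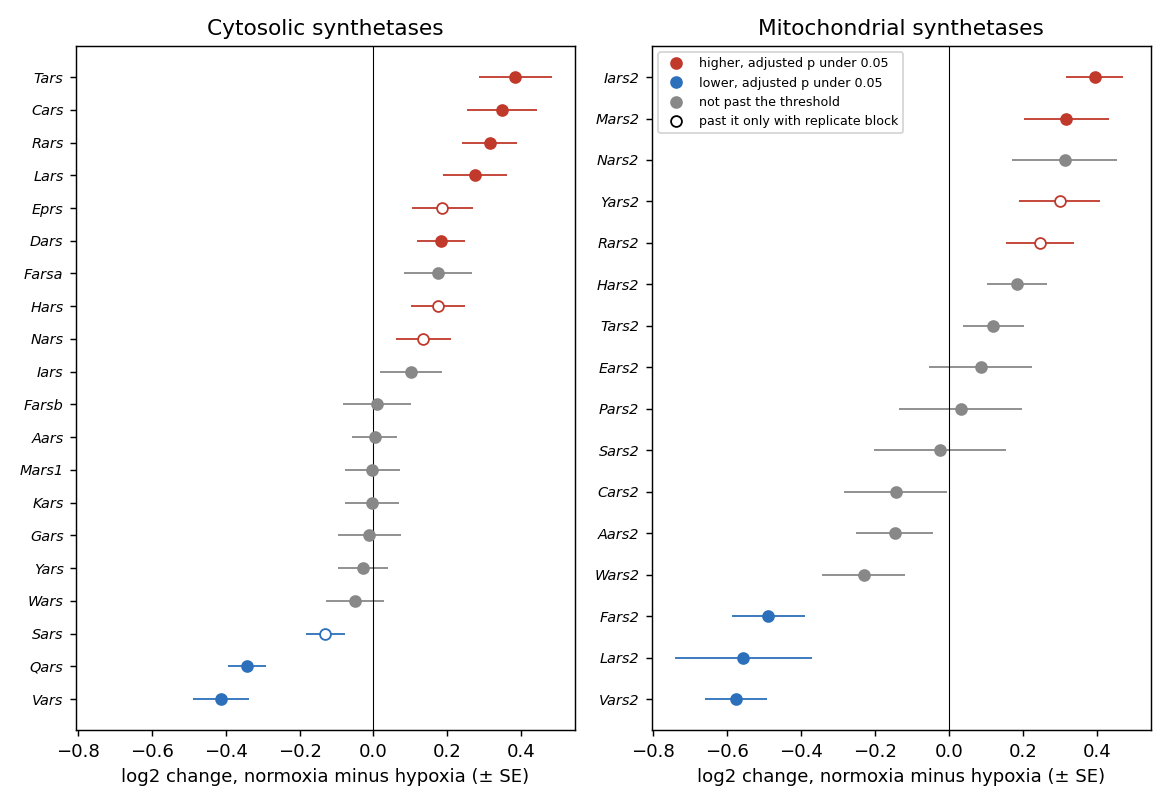
Log2 change of each synthetase, normoxia minus hypoxia, with its SE, for cytosolic (left) and mitochondrial (right) genes; filled red and blue points passed the threshold, open points passed it only with the replicate block. Changes lay on both sides of 0 in both compartments, from -0.58 for Vars2 to 0.39 for Iars2.

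The genes that fell in the cytosol were those for valine and glutamine. Vars, the valine enzyme (ENSMUSG00000007029, chr17:35000987-35016322, GRCm38), had 169.1, 141.8, 163.5 and 142.9 CPM in hypoxia 1 to 4 and 126.8, 108.8, 119.1 and 108.4 CPM in normoxia 1 to 4. Every hypoxia sample was above every normoxia sample, with means of 154.3 ± 14.0 and 115.8 ± 8.89 CPM (SD, n = 4). The log2 change of Vars was -0.41 ± 0.08 (SE), with an adjusted p of 0.0016 by limma-trend. With the GC and length correction it was -0.22 and no longer called (adjusted p = 0.056; with the block 0.00017).

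Qars, the glutamine enzyme and a member of the multi-tRNA synthetase complex (ENSMUSG00000032604, chr9:108507706-108515941), had 105, 107.1, 108.4 and 105.9 CPM in hypoxia and 88.4, 82.2, 84.7 and 81.2 CPM in normoxia. The groups did not overlap, and the spread within each was small (106.6 ± 1.44 and 84.1 ± 3.21 CPM). Its log2 change was -0.34 ± 0.05, and the limma-trend adjusted p was 0.00055. Qars was called under all 19 alternative settings tried.

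The cytosolic genes that rose were those for threonine, cysteine, arginine, leucine and aspartate. Tars (threonine, ENSMUSG00000022241, chr15:11382301-11399665) had 151.6, 112.6, 114.2 and 106.5 CPM in hypoxia and 173.5, 153.2, 152.1 and 148.9 CPM in normoxia. Only hypoxia 1 reached into the normoxia range, and each normoxia sample was above the hypoxia sample of the same number. The log2 change of Tars was 0.38 ± 0.10 (adjusted p = 0.011, limma-trend).

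Cars (cysteine, ENSMUSG00000010755, chr7:143557230-143600090) had 87.2, 70.2, 67.8 and 64.6 CPM in hypoxia and 104, 90.3, 85.4 and 87.9 CPM in normoxia. Here too the overlap came from hypoxia 1, and all 4 same-numbered pairs rose. The log2 change was 0.35 ± 0.09, with an adjusted p of 0.014 in limma-trend.

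Rars (arginine, ENSMUSG00000018848, chr11:35808381-35834506), a complex member, had 78.7, 64.6, 68.4 and 69.7 CPM in hypoxia and 96.8, 82.8, 85 and 85.1 CPM in normoxia. Its groups did not overlap. The log2 change was 0.31 ± 0.07 (limma-trend adjusted p = 0.0063), and the differences within same-numbered pairs were alike, from 0.29 to 0.36.

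Lars (leucine, ENSMUSG00000024493), another complex member, had 180.7, 150.3, 141.7 and 139.1 CPM in hypoxia and 204.1, 167.7, 183.1 and 182.6 CPM in normoxia. Hypoxia 1 lay within the normoxia range. Its log2 change was 0.27 ± 0.09, adjusted p = 0.028 (limma-trend), but the call was lost when hypoxia 2, 3 or 4 or normoxia 1, 3 or 4 was left out, with adjusted p values up to 0.089. The GC and length correction left a log2 change of 0.17 (limma-trend adjusted p = 0.11; 0.0029 in the fit that also held the block).

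Dars (aspartate, ENSMUSG00000026356, chr1:128363707-128417368), also in the complex, had 103.4, 93.9, 90.6 and 95.8 CPM in hypoxia and 118.1, 104.4, 110.8 and 102.2 CPM in normoxia. The groups overlapped slightly. Its log2 change of 0.18 ± 0.06 was just inside the threshold (limma-trend adjusted p = 0.046). The call was lost without any 1 sample except hypoxia 1, with adjusted p values up to 0.17, and after correction for transcript GC content and length its log2 change was 0.00.

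**Figure D3:**
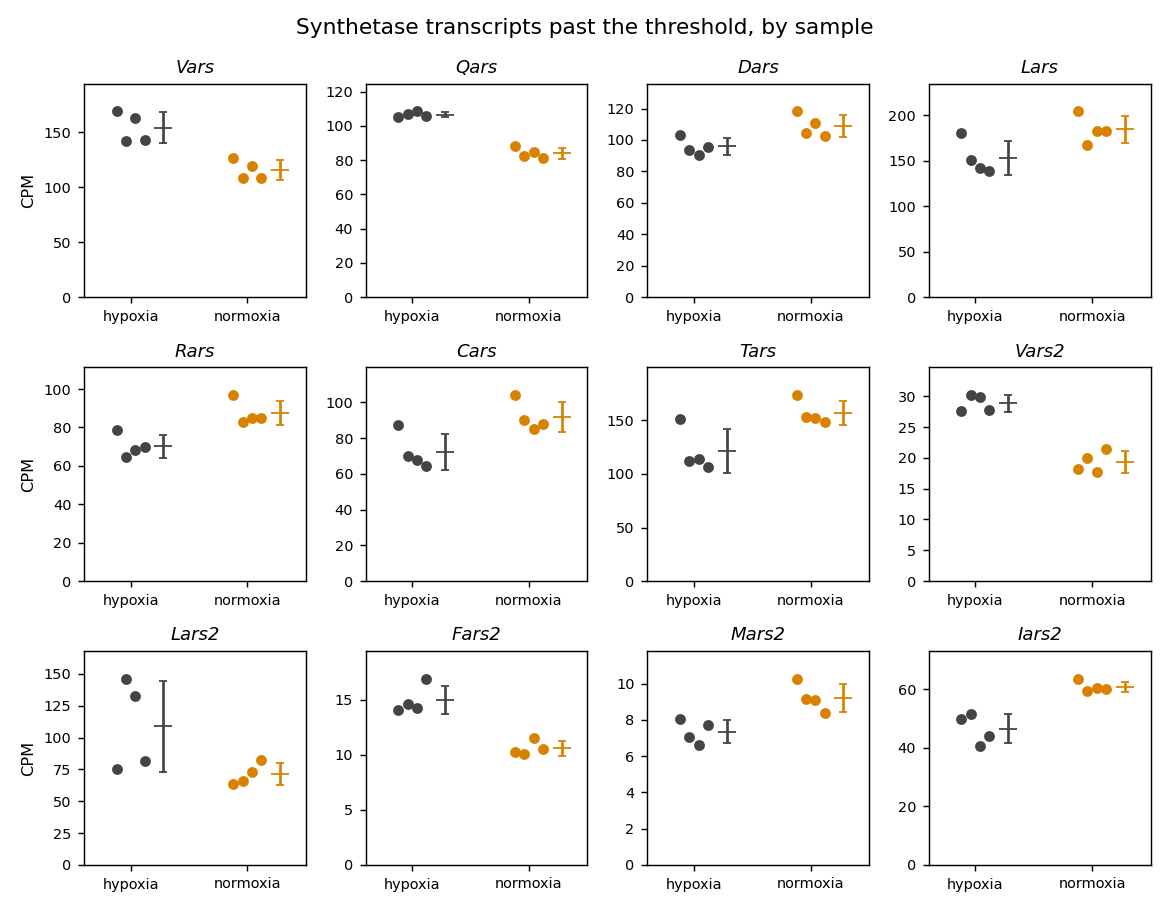
CPM of the 12 synthetases past the threshold in each hypoxia and normoxia sample (points, replicates 1 to 4 from left to right), with the mean and SD of each group beside them. Qars, Vars, Vars2, Fars2, Rars, Iars2 and Mars2 separate the groups without overlap, whereas 2 of the 4 hypoxia samples of Lars2 stand far above all others.

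The 3 mitochondrial genes that fell were those for valine, leucine and phenylalanine. Vars2 (valine, ENSMUSG00000038838, chr17:35655634-35667592) had 27.6, 30.2, 29.9 and 27.8 CPM in hypoxia and 18.1, 20, 17.8 and 21.5 CPM in normoxia. The groups were far apart, with means of 28.9 ± 1.34 and 19.3 ± 1.74 CPM. Its log2 change was -0.58 ± 0.08 with a limma-trend adjusted p of 0.00039, and it was called under all 19 alternatives. An annotated antisense RNA covers 8.52% of its exon bases.

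Fars2 (phenylalanine, ENSMUSG00000021420, chr13:36117412-36726280) had 14.1, 14.6, 14.3 and 16.9 CPM in hypoxia and 10.3, 10.1, 11.6 and 10.5 CPM in normoxia. All hypoxia samples were above all normoxia samples. The log2 change was -0.49 ± 0.10 (adjusted p = 0.0025, limma-trend). Of its exon bases, 8.72% lie opposite exons of Nrn1 and 2% opposite those of Lyrm4.

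Lars2 (leucine, ENSMUSG00000035202, chr9:123366927-123462666) had 75.6, 145.9, 133 and 81.4 CPM in hypoxia and 63.6, 66.1, 73 and 82.7 CPM in normoxia. Only hypoxia 2 and 3 were above the normoxia range, so that the log2 change of -0.56 ± 0.19 (limma-trend adjusted p = 0.036) rested on these 2 samples. Without hypoxia 2 it was -0.40 (adjusted p = 0.094) and without hypoxia 3 it was -0.44 (adjusted p = 0.11), and the call was also lost without normoxia 1, 2 or 3.

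A stretch of 72 bases in the 3' untranslated part of the last Lars2 exon (chr9:123462048-123462119, after the last coding base) matched the transcript Gm15564 at 98.6% identity. Gm15564 itself had 3 to 11 counts per sample and did not follow Lars2, with 0.64 CPM in hypoxia 2 and 0.31 CPM in hypoxia 3. CT010467.1, a gene annotated as ribosomal RNA and chosen after its values were seen, had 143.5, 284.8, 267.5 and 177.7 CPM in hypoxia and 133.7, 149, 162.2 and 153.4 CPM in normoxia. Its 2 high samples were thus the same as those of Lars2, and its log2 change was -0.49 (limma-trend adjusted p = 0.049). The part of ribosomal RNA in the Lars2 values was not tested.

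In mitochondria the genes that rose were those for isoleucine and methionine. Iars2 (isoleucine, ENSMUSG00000026618, chr1:185284726-185329396) had 49.7, 51.5, 40.8 and 44.1 CPM in hypoxia and 63.5, 59.4, 60.5 and 60.2 CPM in normoxia. The groups did not overlap, and the log2 change was 0.39 ± 0.08 (adjusted p = 0.0024, limma-trend). However, 22.9% of the Iars2 exon bases lie opposite exons of Rab3gap2, which had 60.1 to 76.2 CPM in hypoxia and 75.5 to 81.4 CPM in normoxia (log2 change 0.28, limma-trend adjusted p = 0.013). Whether the counting used strand is not given in the sources used here, and without strand the reads of this overlap cannot be told apart.

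Mars2 (methionine, ENSMUSG00000046994, chr1:55237177-55248470) had 8.03, 7.06, 6.64 and 7.71 CPM in hypoxia and 10.3, 9.15, 9.09 and 8.37 CPM in normoxia. The groups did not overlap, and the log2 change was 0.32 ± 0.11 with an adjusted p of 0.049 (limma-trend). The call was lost without any 1 sample except hypoxia 1 (adjusted p up to 0.16) and after the GC and length correction, which left a log2 change of 0.13.

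The CPM values of the groups did not overlap for 8 of the 16 mitochondrial genes and for 4 of the 20 cytosolic ones, beside 32.6% of all genes tested. Among them Nars2 (asparagine) had 4.39, 3.45, 4.29 and 4.93 CPM in hypoxia and 5.57, 4.97, 5.12 and 5.58 CPM in normoxia, from 43 to 105 counts. All 4 normoxia samples were higher, but its log2 change of 0.31 ± 0.14 did not pass the test (limma-trend adjusted p = 0.11). Hars2 (histidine) was likewise separated, with a log2 change of 0.18 ± 0.08 and an adjusted p of 0.097 (limma-trend), and 195 of its exon bases lie opposite exons of its neighbour Hars.

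The cytosolic and mitochondrial genes for the same amino acid were then set side by side. The valine and leucine enzymes were called in both compartments, and with the replicate block so were the arginine enzymes (Rars and Rars2, both higher). Both valine genes fell, whereas the leucine genes went apart, Lars rising and Lars2 falling. The sign of the log2 change was shared in 10 of the 17 pairings.

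The log2 ratio of cytosolic to mitochondrial transcript in each sample did not overlap between conditions in 5 of the 17 pairings, 2 of which share Fars2. Of single genes tested, 32.6% had groups that did not overlap, so this count was not above that background, and the 5 are given as values. For phenylalanine the ratio of Farsa to Fars2 went from 1.06 ± 0.23 in hypoxia to 1.72 ± 0.16 in normoxia on the log2 CPM scale, and that of Farsb to Fars2 went from 1.76 ± 0.26 to 2.26 ± 0.17. For isoleucine, methionine and tyrosine the ratio went the other way, for example from 3.84 ± 0.12 to 3.52 ± 0.07 for Mars1 to Mars2 and from 3.77 ± 0.12 to 3.44 ± 0.09 for Yars to Yars2. These ratios were described and not tested.

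**Figure D4:**
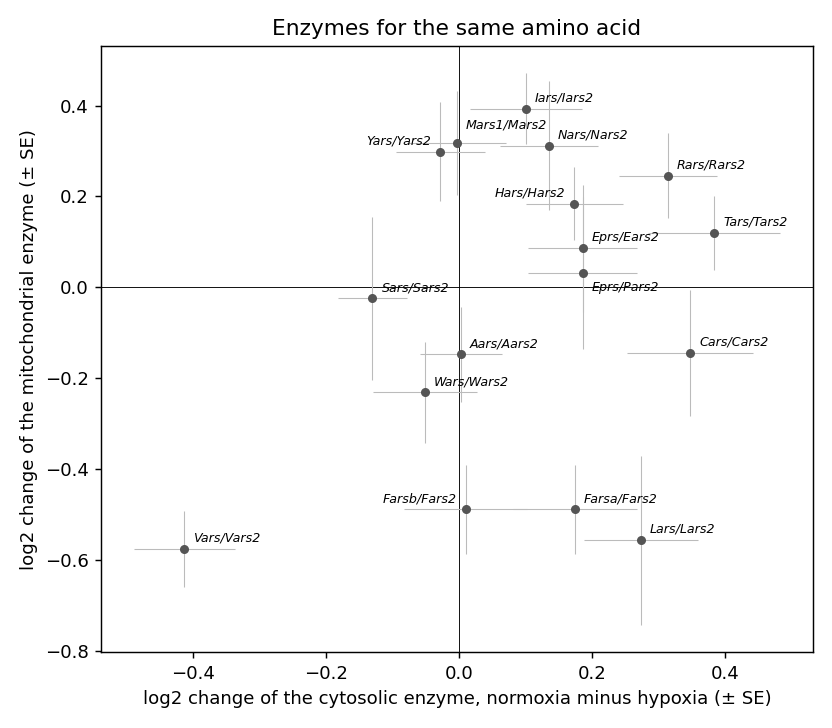
Log2 change (normoxia minus hypoxia, ± SE) of the cytosolic gene (horizontal axis) and the mitochondrial gene (vertical axis) for the same amino acid, 17 pairings. Vars/Vars2 lies at the lower left with changes of -0.41 and -0.58, and Lars/Lars2 at the lower right with changes of 0.27 and -0.56.

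The cytosolic synthetases also varied together among samples of the same oxygen level. In hypoxia, 19 of the 20 cytosolic synthetases had their highest CPM in replicate 1, the exception being Qars, and in normoxia 18 of 20 did, the exceptions being Farsa and Eprs. Of all genes tested, 29.3% were highest in hypoxia 1 among the hypoxia samples and 30.6% in normoxia 1 among the normoxia samples. Relative to the mean of the other samples of its group, replicate 1 was higher by a median of 0.23 (log2) over the cytosolic genes in hypoxia and 0.18 in normoxia, whereas the medians over all genes tested were 0.01 and 0.00.

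The mitochondrial synthetases did not share this. Of 16 genes, 3 were highest in hypoxia 1 and 2 in normoxia 1, and the median differences from the other samples were -0.02 and -0.06. On the cytosolic side, the most abundant gene, Nars, had 431.7 CPM in hypoxia 1 and 356.3 to 360.9 CPM in hypoxia 2 to 4. It had 449.4 CPM in normoxia 1 and 393.4 to 406.7 CPM in normoxia 2 to 4. Hypoxia 1 was also the deepest library, whereas normoxia 1, with 13164251 counts, was as deep as the rest of its group. Of the 25 ATF4 targets other than synthetases, 18 were highest in hypoxia 1 and 14 in normoxia 1, with median differences of 0.21 and 0.10. Of the 27 genes tested that make and deliver tRNA, 13 and 14 were, with median differences of 0.12 and 0.11. The shift of replicate 1 was thus not confined to the cytosolic synthetases. The summed level of the blood and endothelial markers was lowest in replicate 1 of both groups, at 459.6 CPM in hypoxia 1 (622.7 to 905.9 CPM in hypoxia 2 to 4) and 575 CPM in normoxia 1 (675.1 to 1066 CPM in normoxia 2 to 4). The macrophage genes Lyz2 (260.9 and 399.5 CPM) and Adgre1 (64.8 and 66.8 CPM) were lowest there too. Ptprc was lowest in hypoxia 1 (8.28 CPM) but not in normoxia 1, with 10.8 CPM there and 10.1 CPM in normoxia 2. Values by sample of Cd68 and Csf1r are not given here. The part of these cells in the shift of replicate 1 was not tested. The cytosolic genes were counted and ranked after their values had been seen, and no test was made.

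**Figure D5:**
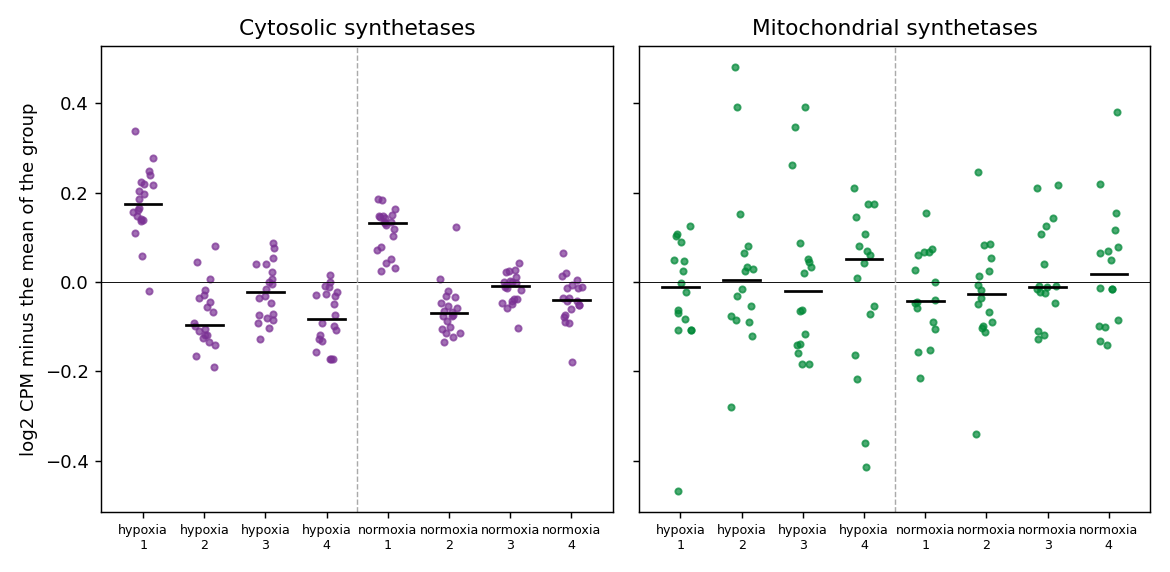
Log2 CPM of each synthetase in each sample minus the mean of its group, for cytosolic (left) and mitochondrial (right) genes; each point is 1 gene and the bars are medians over genes. Cytosolic genes are shifted up in hypoxia 1 and normoxia 1, whereas mitochondrial genes scatter around 0 in all 8 samples.

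Among the 8 members of the multi-tRNA synthetase complex, Rars, Lars and Dars rose, Qars fell, and Eprs, Iars, Kars and Mars1 were not called without the block. These 4 of 8 stand beside 34.6% of all genes tested. The median log2 change of the 8 was 0.14, but 0.02 with the GC and length correction, under which Lars and Dars were no longer called. The scaffold genes of the complex did not pass the test: Aimp1 had 41.9 CPM on average in both conditions and Aimp2 10.8 and 10.4 CPM. With the GC and length correction Aimp1 was called lower (log2 change -0.25, limma-trend adjusted p = 0.014; 0.0011 in the fit that also held the block). Eef1e1, the third scaffold, had 18.1, 12.7, 17.3 and 14.4 CPM in hypoxia and 25.3, 16.7, 17.6 and 19.2 CPM in normoxia. Its groups overlapped, and its log2 change of 0.33 had an adjusted p of 0.099 in limma-trend and 0.0053 with the block.

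Mitochondria have no glutaminyl-tRNA synthetase, and glutaminyl-tRNA is made there by the amidotransferase of Gatb, Gatc and Qrsl1. These genes were not called, with log2 changes of -0.02, -0.03 and 0.24. Of the 15 scaffold and partner genes listed, 14 could be tested and 1 was called, Dtd2, a deacylase that removes wrongly charged amino acids from tRNA. It had 13, 13.3, 14.3 and 13.9 CPM in hypoxia and 11.4, 10.7, 7.58 and 10 CPM in normoxia. The groups did not overlap (log2 change -0.47, limma-trend adjusted p = 0.013).

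Of 27 genes tested that make and deliver tRNA, 4 rose and 6 fell, 37% of the list beside 34.6% of all genes tested. Their median log2 change was 0.07, and -0.05 with the GC and length correction. Trnt1, which adds the CCA end that every synthetase charges, had 16.5 to 17.4 CPM in hypoxia and 23.4 to 26.4 CPM in normoxia (log2 change 0.54, limma-trend adjusted p = 0.00031). Pop1, a subunit of RNase P, rose by 0.66 (limma-trend adjusted p = 0.0011). On the other side, Tsen34, a subunit of the tRNA splicing endonuclease, changed by -0.53 (limma-trend adjusted p = 0.00013) and the tRNA methyltransferase gene Trmt1 by -0.49 (adjusted p = 0.00056).

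Of 25 genes listed for the ATF4 response other than synthetases, 14 fell and 0 rose, beside 16.5% of all genes tested that were lower, and 11 were not called. With the block 17 fell and Nupr1 rose, and with the GC and length correction 11 were lower and 2 (Atf4 and Cebpb) higher. The median log2 change of the list was -0.24. Slc7a5, a transporter of large neutral amino acids, had 364.8 to 455.9 CPM in hypoxia and 189.4 to 210.9 CPM in normoxia (log2 change -1.01, limma-trend adjusted p = 1.7e-05). Trib3, a stress-induced pseudokinase, changed by -0.68 (limma-trend adjusted p = 2.7e-05). Asns, asparagine synthetase, which makes the amino acid that Nars loads, had 360, 261.9, 311.5 and 295.5 CPM in hypoxia and 252.3, 208.5, 231.2 and 226.1 CPM in normoxia. These groups did not overlap (log2 change -0.41, limma-trend adjusted p = 0.0042). The Atf4 transcript itself had 226.9 ± 18.2 CPM in hypoxia and 241.5 ± 6.84 CPM in normoxia and was not called (log2 change 0.09, limma-trend adjusted p = 0.28). After the GC and length correction its log2 change was 0.25 and it was called higher (limma-trend adjusted p = 0.012; 9.7e-05 in the fit that also held the block).

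RefSeq promoters (250 bases before to 50 after the annotated start, GRCm38.p6) were searched for the C/EBP-ATF response element, spelled TGATGNAA, on both strands. It was found in 5 of the 13 cytosolic synthetases with a promoter available (Aars, Gars, Iars, Tars and Yars). Among mitochondrial synthetases it was found in 0 of 14. It stood in 7 of 23 ATF4 targets other than synthetases and in 3.97% of all 32851 promoters. No promoter was available for Cars, Hars, Lars, Nars, Rars, Vars, Wars, Hars2 and Pars2, so these were not searched. The windows below are 30 bases long, written 5′ to 3′ on the strand on which the element reads TGATGNAA, with the element in capitals. They are shown because the same letters stand in the promoters of genes that differed in their change.
Tars: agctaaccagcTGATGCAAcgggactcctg
Gars: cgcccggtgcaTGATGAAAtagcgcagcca
Iars: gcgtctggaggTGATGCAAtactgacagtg
Yars: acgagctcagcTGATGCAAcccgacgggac
Asns: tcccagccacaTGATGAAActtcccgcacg
Trib3: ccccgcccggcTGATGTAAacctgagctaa
Pycr1: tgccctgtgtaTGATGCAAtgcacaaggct

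The window of Tars lies at chr15:11399655-11399684 (plus strand), Gars at chr6:55037960-55037989 (minus), Iars at chr13:49682126-49682155 (minus) and Yars at chr4:129189895-129189924 (plus). That of Asns lies at chr6:7693214-7693243 (minus), Trib3 at chr2:152344028-152344057 (plus) and Pycr1 at chr11:120643833-120643862 (minus). The element of Tars begins 15 bases before the annotated start, and those of Iars and Yars begin 7 and 3 bases after it.

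Of the 5 synthetases with the element, Tars rose. The others were not called without the GC correction: Aars had 389.9 to 457.5 CPM in hypoxia and 397.8 to 431.7 CPM in normoxia (log2 change 0.00), and Gars, Iars and Yars changed by -0.01, 0.10 and -0.03. Of the 7 ATF4 targets with it, Asns, Trib3, Chac1 and Pycr1 fell and Slc7a11, Vldlr and Nupr1 were not called, Nupr1 being higher with the block. The 3 target windows printed are all from genes that fell. A match of letters is a description, and binding was not measured here.

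Wars (tryptophan), which is known to be induced by interferon gamma, had 75.5 to 91.3 CPM in hypoxia and 73 to 87.8 CPM in normoxia and was not called (log2 change -0.05, limma-trend adjusted p = 0.66). Among 15 interferon gamma response genes, 2 rose and 4 fell, 40% of the list beside 34.6% of all genes tested. Irf1 and Gbp2 rose by 0.42 and 0.30 on the log2 scale, and Psmb9 and Irf7 changed by -0.91 and -0.90.

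The change went with the base composition of the transcripts. Over the 36 synthetases, the log2 change and the GC content of the longest transcript had a Spearman's rho of -0.64, as a description over genes that share the same 8 libraries, and over 14353 genes it was -0.39. Of the 15 synthetases under 48% GC, 6 rose and 0 fell. Of the 11 at 52% and over, 1 (Cars) rose and 3 (Vars, Vars2 and Fars2) fell, with these bounds set after the values were seen. The shares of all genes tested in the same GC ranges are not given here. With a rho of -0.39 over all genes, these counts are not read as particular to synthetases. When GC content and length were corrected for together with the replicate block, 13 synthetases were called, 7 higher and 6 lower, beside 43.3% of all genes tested. Vars had a log2 change of -0.22 and Vars2 of -0.41 in that fit, with adjusted p values of 0.00017 and 4.8e-05 (limma-trend). Aars (log2 change 0.13, limma-trend adjusted p = 0.0093) was called higher and Wars2 (-0.34, adjusted p = 0.013) lower in that fit, neither of which was called with the block alone, while Dars, Eprs, Nars, Rars2, Yars2, Mars2 and Sars were not called. The part of base composition in the changes was not tested otherwise.

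Some counts are uncertain because genes share sequence. Aars shares 14.3% of its exon bases with Exosc6 on the same strand, which was listed at 0 counts in every sample. Iars matched the processed pseudogene Gm4849 at 96% identity over 1656 bases, and Gm4849 had 0 to 4 counts per sample.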

How the data were processed

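Total RNA libraries were prepared and sequenced by the authors as single-end reads. Per the study's methods, reads were aligned to mm10 with STAR within zUMIs and counted with featureCounts on Ensembl annotation. The deposited file holds the counts, not normalized, of 53465 genes in 8 samples. Settings for strand, introns and multiply mapped reads are not given in the sources used here.

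Samples were grouped by their labels (4 hypoxia, 4 normoxia). The labels do not say whether replicates came from separate cultures or mice; the study describes the replicates as biologically independent and the sorted cells as divided between the oxygen levels, without tying replicate numbers to mice. The p-values measure the spread between these samples. Genes were filtered with edgeR 4.0.16 (filterByExpr, minimum count 5) and normalized by TMM, and log2 CPM (prior count 3) were fitted with limma 3.58.1 (limma-trend, adjusted p under 0.05) in R 4.3.3. The steps were tested on simulated data. The members and gene lists were chosen with earlier results of these data known. Per-sample values were given for members past the threshold, up to 6 in each direction and compartment, and lists by the 2 largest called changes in each direction. Scaffolds, amidotransferase genes, Atf4 and Asns were always named.

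Same-numbered samples deviated together (correlations 0.47, 0.28, 0.25 and 0.17), so the numbers were taken to pair the samples. Correlations between differently numbered samples are not given here. Symbols, coordinates, GC content and lengths came from GENCODE M21 (GRCm38), with 53274 identifiers matched. Transcript copies were searched with BLAST 2.17.0. Alternatives were edgeR's quasi-likelihood test, DESeq2 1.42.0, limma-voom, other normalizations, filters and prior counts, the replicate block, a GC and length spline, and leaving out each sample. Count totals limit precision for low mitochondrial genes. Counting error alone allows 0.125 to 0.241 CPM for a gene with 0 counts (3 counts). Some markers and promoter windows are not reported here.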

Additional observations from a re-analysis of the deposited data

Results flagged for a closer look

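Among 74 sets of 4 values (each synthetase's log2 CPM and the total count, in each group), 4 held a sample far from the other 3 by Dixon's ratio of gap to range, where chance gives about 3.7. The total count of hypoxia 1 had a ratio of 0.976. Nars in hypoxia 1, at 431.7 CPM, had 0.933. Aars2 in normoxia 3, at 12.2 CPM, had 0.836. Cars2 in normoxia 4, at 9.12 CPM against 6.24 to 6.48 CPM in the other normoxia samples, had 0.899.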

How the results depend on the processing

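Of the 12 synthetases called, 7 (Tars, Cars, Rars, Qars, Fars2, Iars2 and Vars2) were called under all 19 alternatives, and 0 of the 12 changed sign. Vars was lost only with the GC and length correction without the block (-0.22, adjusted p = 0.056), Lars with that correction (adjusted p = 0.11), and Lars2 with library size alone as the scale (adjusted p = 0.066), beside the samples named in the report. Dars and Mars2 were lost under 14 of 19 alternatives each. With the replicate block, 8 cytosolic and 4 mitochondrial genes were higher. Over both compartments the block moved the count of higher genes from 7 to 12, and it ended none of the 12 calls. The lists whose counts it moved by more are given in the report. With library size only, 9 cytosolic and 5 mitochondrial genes were higher and both medians were 0.14. That scale moved the median of all genes to 0.09 and the share of calls that were higher from 52.2% to 69.6%. The GC and length correction left 1 cytosolic gene lower. Only 1 mitochondrial gene was higher with that correction (with or without the block), with edgeR's test, DESeq2, median-ratio normalization or no filter. Leaving out 1 sample at a time gave 3 to 8 cytosolic and 1 to 3 mitochondrial genes higher, 2 to 3 lower in each compartment, and medians of 0.0083 to 0.13 (cytosolic) and -0.0055 to 0.12 (mitochondrial). Leaving out Lars2 gave a mitochondrial median of 0.09. The cause of these shifts was not tested. Mitochondrial genes with under 100 counts in some samples limit what could be called.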
